A study of Mus musculus with 2 samples.

Results

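Zic1, Zic2, Zic4 and Zic5 encode zinc finger transcription factors and lie in the mouse genome as neighbouring pairs, Zic1 with Zic4 on chromosome 9 and Zic2 with Zic5 on chromosome 14. The enrichment peaks described here are all those that touched 1 of 2 intervals, 91.2 to 91.33 Mb on chromosome 9 for Zic1 and Zic4 and 122.82 to 122.93 Mb on chromosome 14 for Zic2 and Zic5, on the mm9 build. They numbered 15 of the 100871 peaks in both lists together, 4 of 55292 in the control library and 11 of 45579 in the library labelled shDnmt3L. Both libraries came from E14 cells, a mouse embryonic stem cell line. The control culture was transfected with shGFP, a short hairpin RNA against GFP, and the other with shDnmt3L, a hairpin against Dnmt3L, a cofactor without enzyme activity of its own that stimulates DNMT3A and DNMT3B. With 1 library a group, the values below carry no replicate error and no test was possible. The targeted gene's own level was not analysed here.

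The labels name the samples as MeDIP and the series design names 5-methylcytosine, whereas the labels' protocol describes capture with the Hydroxymethyl Collector kit, which binds glucosylated 5-hydroxymethylcytosine. For that reason the text speaks of enrichment peaks and does not name the modification. Over the whole lists, the median peak was 1998 bp wide in shGFP and 2376 bp in shDnmt3L, and peaks covered 118 and 124 Mb. The depth of sequencing is unknown, and peak calls depend on it. The intervals were selected on the covered length, widest peak, sharing and score rank of peaks in both lists, so all such values are descriptions of these 2 libraries.

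ZIC proteins bind DNA through a domain of C2H2 zinc fingers related to that of the GLI proteins, the effectors of Hedgehog signalling. They act in the early neural plate, the neural crest and the dorsal neural tube. ZIC1 and ZIC4 are best known for their part in the growth of the cerebellum. Loss of ZIC2 causes holoprosencephaly, a failure of the forebrain to divide, and ZIC2 is also present in embryonic stem cells, where it binds enhancers. ZIC5 acts in neural tube closure and neural crest formation. In the RefSeq gene table of the GRCm38 build, Zic1 and Zic4 were direct neighbours, and the long non-coding RNA gene 2610035F20Rik lay between Zic5 and Zic2.

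The promoter sequences of the pairs are shown because the captured modifications sit mainly on the cytosine of CpG dinucleotides in mouse DNA, and CpG density differed within the Zic1 and Zic4 pair. RefSeq entries were matched for 3 of the 4 genes, Zic1, Zic4 and Zic5. Each runs 5′ to 3′ over 300 bases, 250 before and 50 after the start of the gene, with every CpG in capitals. On GRCm38.p6 they lie at chr9:91365719-91366018 on the minus strand for Zic1, at chr9:91368722-91369021 on the plus strand for Zic4 and at chr14:122465609-122465908 on the minus strand for Zic5. These positions belong to another build than the peaks and must not be set against the peak coordinates.
Zic1: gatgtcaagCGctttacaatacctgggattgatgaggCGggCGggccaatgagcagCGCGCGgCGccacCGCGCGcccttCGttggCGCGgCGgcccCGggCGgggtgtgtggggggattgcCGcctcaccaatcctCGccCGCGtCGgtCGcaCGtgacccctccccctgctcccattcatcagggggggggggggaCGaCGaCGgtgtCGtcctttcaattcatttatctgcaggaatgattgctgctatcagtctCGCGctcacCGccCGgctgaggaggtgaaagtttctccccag
Zic4: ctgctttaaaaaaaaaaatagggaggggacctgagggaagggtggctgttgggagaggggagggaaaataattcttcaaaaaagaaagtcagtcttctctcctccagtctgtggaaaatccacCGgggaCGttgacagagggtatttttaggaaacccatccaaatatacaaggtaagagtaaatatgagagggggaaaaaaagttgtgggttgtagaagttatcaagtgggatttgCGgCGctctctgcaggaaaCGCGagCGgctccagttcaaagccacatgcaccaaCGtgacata
Zic5: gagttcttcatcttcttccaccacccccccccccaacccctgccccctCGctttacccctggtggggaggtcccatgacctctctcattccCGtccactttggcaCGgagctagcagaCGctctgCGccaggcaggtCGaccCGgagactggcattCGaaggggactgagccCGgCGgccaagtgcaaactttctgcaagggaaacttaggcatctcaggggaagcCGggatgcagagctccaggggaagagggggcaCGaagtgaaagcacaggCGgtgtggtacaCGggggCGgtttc
The Zic1 promoter held 31 CpG in 65.3% GC, and 10.6% of the 32851 promoter windows of this length held as many or more. The Zic5 promoter held 15 CpG in 62.7% GC, a number reached by 34.6% of the windows. The Zic4 promoter held 8 CpG in 46.0% GC, close to the median of 7 over all windows, and 48.7% of them held as many or more. Zic1 and Zic4 are transcribed away from each other, on opposite strands. No gene position on mm9 was used, so no peak was assigned to a promoter, an exon or an intron of these genes.

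Both Zic intervals had a few kb under peaks in the control library and long stretches of enrichment in the shDnmt3L library. In the Zic1 and Zic4 interval, 2 shGFP peaks covered 4.62 kb (3.55% of the interval) and 5 shDnmt3L peaks covered 34.4 kb (26.5%), a ratio of 7.46. In the Zic2 and Zic5 interval, 2 shGFP peaks covered 3.44 kb (3.12%) and 6 shDnmt3L peaks covered 32.3 kb (29.4%), a ratio of 9.41. This ratio was 16.1 with the shGFP list shortened to the length of the other, which drops 1 of its 2 peaks here, and 4.02 with the interval widened by 50 kb on each side. The extra covered length was much the same for the pairs, 29.8 kb at Zic1 and Zic4 and 28.9 kb at Zic2 and Zic5. The spans from the first to the last shDnmt3L peak were also close, 56.4 kb and 55.8 kb, of which peaks covered 61.0% and 58.0%.

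**Figure D1:**
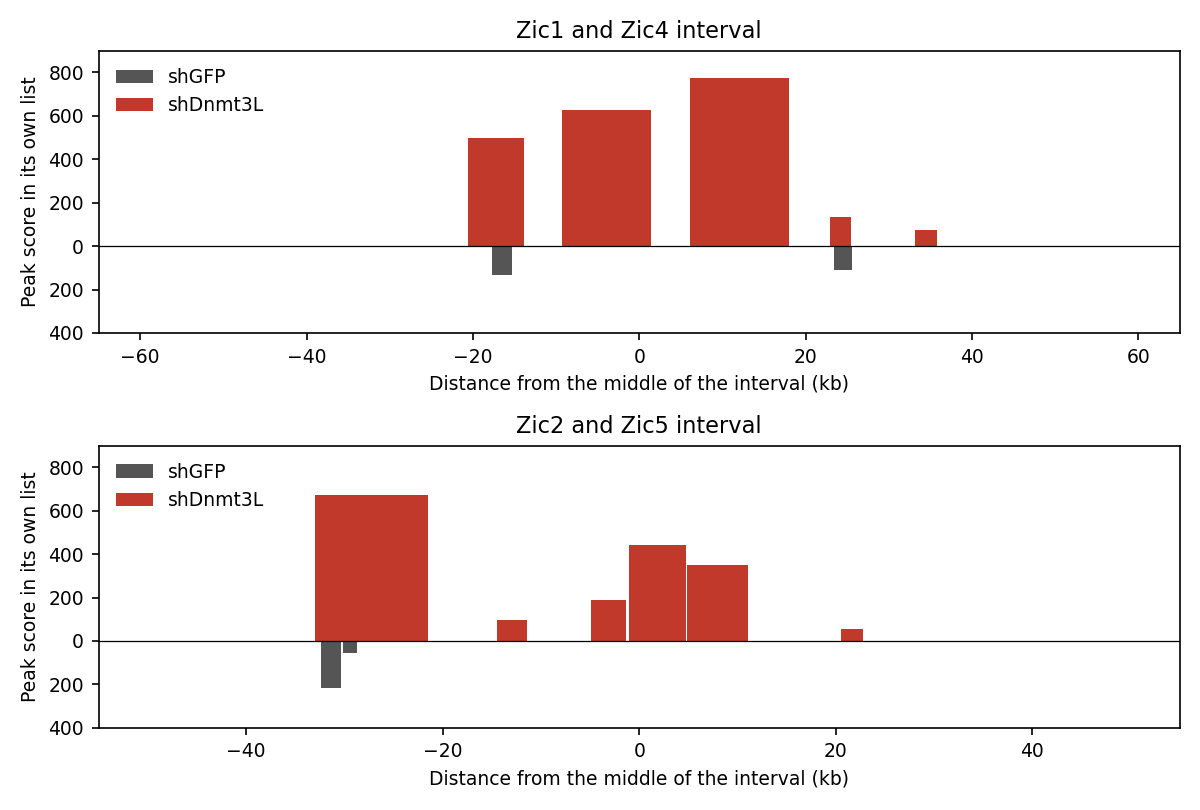
Peaks in the Zic1 and Zic4 interval (top) and the Zic2 and Zic5 interval (bottom), with distance from the middle of the interval in kb on the horizontal axis and peak score on the vertical axis. Each bar is 1 peak as wide as called, shDnmt3L upward in red and shGFP downward in grey; the 11 red bars cover far more of the intervals than the 4 grey bars, and heights are comparable only within a colour.

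The genome as a whole gives the background for these counts. Of 15811 tiles of 100 kb with a peak in either list, 8.37% had a covered length at least 2-fold higher in shDnmt3L, counting tiles with no shGFP peak, and 2.47% had at least 10 kb more under shDnmt3L peaks. In the other direction, 16.7% of the 15811 tiles were at least 2-fold higher in shGFP, counting tiles with no shDnmt3L peak, and 0.114% had at least 10 kb more. Of the 13421 tiles with peaks of both libraries, 6.31% were at least 2-fold higher in shDnmt3L. The median covered length of the 15811 tiles was 4.81 kb in shGFP and 4.65 kb in shDnmt3L. The tile that held most of the Zic1 and Zic4 peaks had 4.62 kb in shGFP and 33.6 kb in shDnmt3L, a difference of 29.0 kb. For Zic2 and Zic5 the tile had 5.48 and 37.9 kb, a difference of 32.4 kb, which included peaks just before the interval. The shGFP values of both tiles were close to the shGFP median. Both tiles were past both limits, 2-fold and 10 kb. The rule that chose the intervals used the same lists, and nothing more is read from this.

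**Figure D2:**
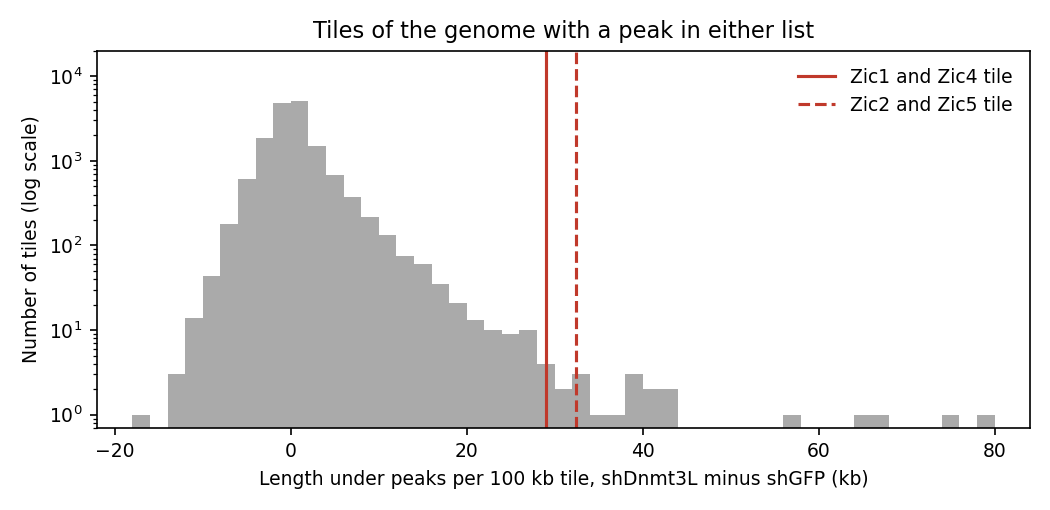
Number of 100 kb tiles (vertical, log scale) by the length under shDnmt3L peaks minus the length under shGFP peaks in kb (horizontal), for the 15811 tiles with a peak in either list. The red lines mark the tiles with most of the Zic1 and Zic4 peaks (29.0 kb, solid) and of the Zic2 and Zic5 peaks (32.4 kb, dashed), both on the right-hand tail.

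At Zic1 and Zic4, 2 wide shDnmt3L peaks filled much of the stretch between the control peaks. The first, on chromosome 9 from 91255666 to 91266443, was 10.8 kb wide with a score of 627. The second, from 91271165 to 91283029, was 11.9 kb wide, the widest peak of either interval. Its score of 773 was the highest among the shDnmt3L peaks of both intervals. Neither of these 2 wide peaks overlapped a shGFP peak, and the nearest ones were 5989 and 5338 bp away. The shGFP peaks, from 91247280 to 91249676 and from 91288368 to 91290585, were 2397 and 2218 bp wide and left 38.7 kb between them without a called peak. The shDnmt3L peaks covered 63.2% of that gap.

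Each control peak of this pair had a shDnmt3L partner, and the partners differed in shape. The left one was 2397 bp wide in shGFP and 6669 bp in shDnmt3L, from 91244435 to 91251103, a ratio of 2.78. It began 2845 bp before the shGFP peak and ended 1427 bp after it. Of 37952 peaks that overlapped one to one in the lists, 2.94% were at least 2-fold wider in shDnmt3L, and the median ratio was 1.06. The right one was almost the same in both libraries, 2218 bp in shGFP and 2464 bp in shDnmt3L (91287989 to 91290452), a ratio of 1.11 in width. The fifth shDnmt3L peak, from 91298181 to 91300838, was 2658 bp wide, scored 76.5 and lay 7595 bp from the nearest shGFP peak. The gaps between the shDnmt3L peaks, from left to right, were 4562, 4721, 4959 and 7728 bp.

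The Zic1 and Zic4 peaks formed an island. In the 500 kb on either side of the interval, neither list held a peak. The last shGFP peak before the interval ended 868926 bp from it and the last shDnmt3L peak 1065492 bp from it. After the interval, the nearest peaks were a partnered pair that began 737490 bp away in shGFP and 737310 bp away in shDnmt3L. This pair had like widths, 2301 and 2472 bp.

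At Zic2 and Zic5, the shDnmt3L peaks spread over a stretch in which the control peaks lay at the left end only. The shGFP peaks, on chromosome 14 from 122842633 to 122844647 and from 122844880 to 122846300, were 2015 and 1421 bp wide and 232 bp apart. Both lay under a single shDnmt3L peak from 122842016 to 122853528, 11.5 kb wide and with a score of 671. It began 617 bp before the first shGFP peak and ended 7228 bp after the second, and 29.8% of it lay under shGFP peaks. The extension was therefore nearly all on the right, whereas the left peak at Zic1 and Zic4 was extended on both sides.

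The other 5 shDnmt3L peaks of this pair had no shGFP partner and lay 14224 to 49223 bp from the nearest shGFP peak. Among them, 3 followed each other with gaps of 237 and 122 bp. They ran from 122870139 to 122873679 (3541 bp, score 187), from 122873917 to 122879744 (5828 bp, score 441) and from 122879867 to 122886043 (6177 bp, score 352). Together they spanned 15.9 kb, longer than any single peak of either interval, though none of the 3 was 10 kb wide as deposited. The remaining peaks were narrow, 3008 bp from 122860525 to 122863532 with a score of 98.1, and 2274 bp from 122895524 to 122897797 with a score of 57.2.

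The surroundings of Zic2 and Zic5 held many peaks, and there the libraries were much closer. In the 500 kb before the interval, 23 shGFP peaks covered 48.8 kb and 22 shDnmt3L peaks covered 54.0 kb, a ratio of 1.11. The ratio was larger in the 100 kb directly before the interval, at 1.32, with 16.9 kb in shGFP and 22.4 kb in shDnmt3L. There 7 of 9 shDnmt3L peaks had a shGFP partner. In the 500 kb after the interval, each list had 2 peaks, which covered 3.57 and 4.16 kb, a ratio of 1.17. Of the 22 shDnmt3L peaks in the 500 kb before the interval, 19 had a shGFP partner, against 1 of 6 inside it. No peak of 10 kb or more lay in either flank. The peaks just outside the interval were partnered pairs. They ended 6881 bp before it in shGFP (2042 bp wide) and 6708 bp before it in shDnmt3L (2454 bp), and began 62672 and 62640 bp after it.

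**Figure D3:**
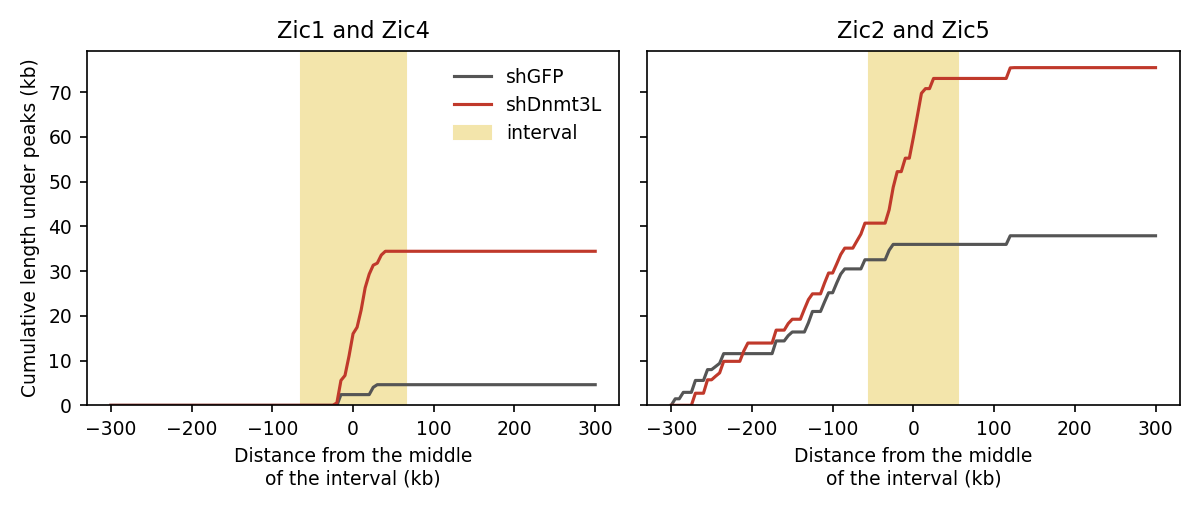
Cumulative length under peaks in kb (vertical) from 300 kb before to 300 kb after the middle of each interval (horizontal, kb), shGFP in grey and shDnmt3L in red, with the interval shaded. Outside the shading the curves are flat for Zic1 and Zic4, where neither list has a peak. For Zic2 and Zic5 both climb before it, to 40.7 kb in red and 32.5 kb in grey at its left edge. Inside the shading the red curves gain 34.4 and 32.3 kb and the grey ones 4.62 and 3.44 kb.

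Sharing was uneven between the libraries. All 4 shGFP peaks of the intervals overlapped a shDnmt3L peak by at least 1 bp, and 97.1% of their length at Zic1 and Zic4 and 100% at Zic2 and Zic5 lay under shDnmt3L peaks. Of the 11 shDnmt3L peaks, 8 (72.7%) overlapped no shGFP peak, 3 of 5 at Zic1 and Zic4 and 5 of 6 at Zic2 and Zic5. The share in the whole shDnmt3L list was 12.6%, and 25.5% of all shGFP peaks had no shDnmt3L partner. In the shDnmt3L list the unshared share was larger among wide peaks. It was 9.39% at 2000 to 2500 bp, 22.7% at 6000 to 8000 bp and 41.4% at 10000 to 15000 bp. The last class holds the 3 wide Zic peaks, so 12.6% is a low background for them. By length, 13.0% of the shDnmt3L enrichment at Zic1 and Zic4 and 10.6% at Zic2 and Zic5 lay under shGFP peaks. Peaks of 10 kb or more numbered 2 at Zic1 and Zic4, 1 at Zic2 and Zic5 and 0 in shGFP for both, against backgrounds of 0.535% of shDnmt3L and 0.0524% of shGFP peaks.

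The scores are the authors' own values for each peak and were ranked only within each list. At Zic1 and Zic4, the shGFP peaks ranked 18850 and 23149 of 55292, in the upper 34.1% and 41.9% of their list. The wide shDnmt3L peaks there ranked 594 and 987 of 45579, in the upper 1.30% and 2.17%, and the extended left peak ranked 1631, in the upper 3.58%. The right peak, of like width in both libraries, ranked 15927 of 45579, in the upper 34.9%. The peak at 91298181 was weak, at rank 30221.

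At Zic2 and Zic5, the wider shGFP peak ranked 8871 of 55292, in the upper 16.0%, and the narrower one 49435, near the bottom of the list. The 11.5 kb shDnmt3L peak over them ranked 828 of 45579, in the upper 1.82%. The 3 adjoining peaks ranked 9963, 2145 and 3400 from left to right, and the narrow ones 23034 and 40143. Over both intervals, 6 of 11 shDnmt3L peaks and 0 of 4 shGFP peaks were in the upper 10% of their list by score. Lists of different lengths were ranked separately, so these ranks show no change in any peak.

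From 1000 bp upward the median score was higher in each wider class in both lists, and most shDnmt3L peaks of the Zic intervals scored below the median for their width. Peaks under 1000 bp were apart from this order, with medians of 89.8 in shGFP and 95.3 in shDnmt3L. In shDnmt3L the median score was 81.3 for peaks of 2000 to 2500 bp and 864 for those of 10000 to 15000 bp. All 3 wide Zic peaks fell below that 864. Among the 244 shDnmt3L peaks of 10 kb or more they ranked 174, 198 and 210 by score and 135, 150 and 185 by width. Set against their own width class, 4 of the 11 shDnmt3L peaks of the intervals scored above the median of their class. Of the 4 shGFP peaks, the 3 between 2000 and 2500 bp scored above the median of 105 for that width, and the 1421 bp peak scored 55.8 against a median of 65.5 for 1000 to 1500 bp.

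**Figure D4:**
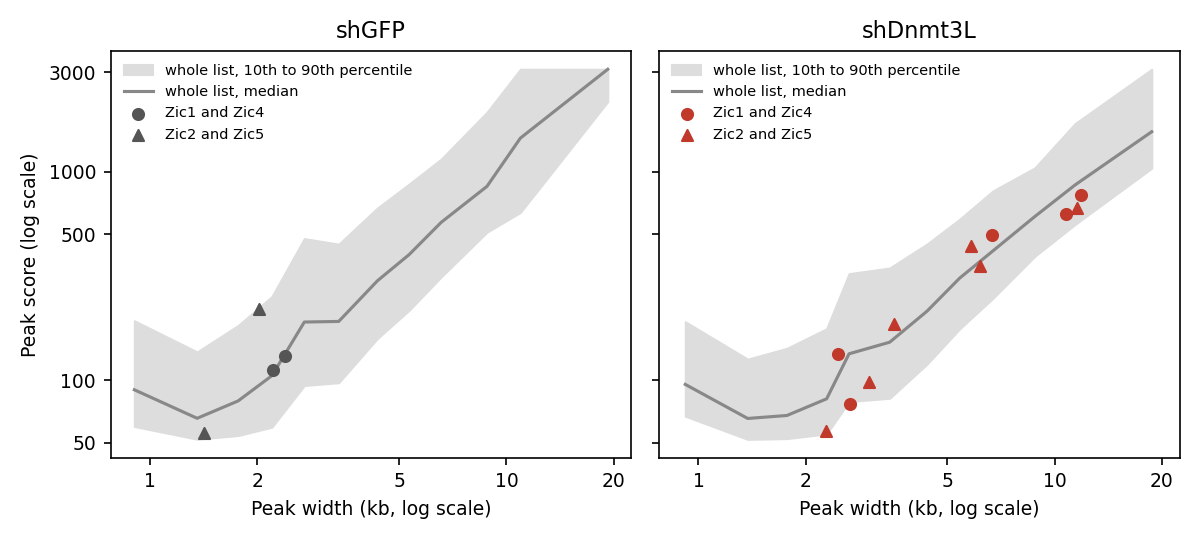
Peak score against peak width in kb (both log scales) for shGFP (left) and shDnmt3L (right); circles are Zic1 and Zic4 peaks, triangles Zic2 and Zic5 peaks, the line is the median and the band the 10th to 90th percentile of the whole list by width class. The 3 widest shDnmt3L points lie below the line but inside the band, and the 4 shGFP points all lie at widths of 2397 bp or less.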

How the data were processed

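Enrichment peaks were compared in 1 shGFP and 1 shDnmt3L library of E14 cells. The authors deposited 1 peak list per library, with a score per peak. Its lowest value of 50 is what a p of 1e-05 gives as −10 log10 p, a reading from the values. CASAVA 1.8, Bowtie 0.12.7, MACS 1.4.1 and mm9 are listed per the submitters' processing notes, without roles. Use of an input control, handling of duplicates or sequencing depth was not given in the sources used here.

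Intervals and measures were chosen with earlier results of these data known. The rule for named features took the 4 genes and every peak touching their intervals. Starts were counted from 1, and covered length was clipped to the interval. A peak was shared at an overlap of 1 bp or more. Python 3.11.15, numpy 2.4.6, pandas 2.3.3, scipy 1.17.1 and matplotlib 3.10.9 were used, and the interval code was tested on simulated data. The RefSeq tables are of GRCm38, and no coordinates were converted. The Gli and Glis genes, listed for a count if an mm9 annotation was given, were not analysed here. Groups were compared without a test, since each has 1 library. The alternatives tried took only peaks scoring at least 100, cut the longer list to the length of the shorter, joined peaks up to 500 bp apart, or used peaks wholly inside the interval, intervals widened by 50 kb on each side, other overlap rules and other tile sizes.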

Additional observations from a re-analysis of the deposited data

How the results depend on the processing

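Of 42 alternative values, 34 remained inside a tolerance, 8 left it and 0 changed sign, which values in percent could not do. The tolerance was a factor of 1.5 for ratios of lengths, of widths and of peak numbers and for the length under control peaks, and a 95% counting interval for shares of peaks and tiles. At Zic1 and Zic4 the changes were within it. At scores of 100 or more the ratio of covered length was 6.89 (main value 7.46) and that of peak number 2 (2.5). At an overlap of 50% of both peaks, 1 of 5 shDnmt3L peaks was shared (2 of 5), inside a counting interval of 5.27 to 85.3%. That interval treats neighbouring peaks of 1 library as independent and is very wide, so lying inside it shows no stability. At Zic2 and Zic5, lists of equal length dropped the weaker shGFP peak, and the log2 ratio of shDnmt3L over shGFP was 4.005 for covered length (main value 3.23) and 2.58 for peak number (1.58), with 6.23% of the shDnmt3L length under shGFP peaks (10.6%). With that interval widened by 50 kb on each side, which takes in further peaks before it, the log2 ratio was 2.01 for covered length and 1.86 for the widest peak (2.51). At an overlap of 50% of both peaks, 0% of the Zic2 and Zic5 shDnmt3L peaks were shared (16.7%). Scores of 100 or more left 1 shGFP peak (2) and 4 shDnmt3L peaks (6) in that interval. The ratio of covered length was then 13.4 (9.41), and 7.45% of the shDnmt3L length lay under shGFP peaks (10.6%). Both values were inside the tolerance. The share of tiles at least 2-fold apart in either direction was 25.1% at 100 kb, 28.9% at 50 kb and 20.7% at 200 kb. Some alternatives could not change a value by construction, and their values are counted among the 34. No peak crossed an interval's edge, and no peak lay in the widened part at Zic1 and Zic4. In both lists the peaks of that pair were more than 500 bp apart, so merging joined none there. The merged peaks at Zic2 and Zic5 gave a widest peak of 15.9 kb in shDnmt3L and 3.67 kb in shGFP. No paired analysis was possible because there is only 1 library a group. The unknown depth limits what can be said of weak peaks.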
